A study of Mus musculus with 54 samples.

Results

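Mt1 and Mt2 encode the 2 widely expressed metallothioneins of the mouse, and their rows were followed through a single-cell RNA-seq survey of bone marrow myeloid progenitors. Members were taken as every gene row whose name, split at semicolons, held Mt1 or Mt2 exactly, and this gave 2 of 27297 rows, neither of them joined to another symbol. They were chosen by their measured UMI counts in these same cells, which had been seen to follow the erythroid gene Car1, so their levels are given as a description with no test. The data came from MARS-seq, a plate method that tags the 3' ends of each sorted cell's mRNA with a barcode for the well and one for the molecule (unique molecular identifier, UMI) before the wells of a pool are amplified as one. Each of 54 samples was 1 amplification pool of 192 wells, 190 with a single cell and 2 empty, and the 10368 well identifiers were all different. Of 10260 single-cell wells, 8399 (81.9%) held at least 500 UMIs and were used.

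The groups were read from the authors' well table, which gives 8 descriptions with 1 mouse identifier each. All cells were lineage-negative, Sca1-negative and cKit-positive bone marrow cells of C57BL/6 mice, enriched for cKit on magnetic beads. There were 16 pools of unsorted myeloid progenitors (2732 cells). In addition, 3 gates were set on common myeloid progenitors (CMP), the CD34-positive and FcgR-low cells. The CD41 gate had 2 pools (336 cells). The gate for Flt3 and Csf1r had 6 pools (1132 cells), and the gate for MHC class II and GFP in Irf8-GFP reporter mice also had 6 (1116 cells). Cebpa knockout mice were Cebpa(flox/flox) Mx1-Cre, where Cre is driven by an interferon-responsive promoter and switched on with poly(I:C) (12 pools, 1384 cells), and their controls were Cebpa(flox/flox) (6 pools, 890 cells). Cebpe-/- mice had 4 pools (559 cells) and Cebpe+/+ controls 2 (250 cells).

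The GEO label and the well table named the same group in 36 pools and different groups in 18. They differed in 4 of 6 Flt3 gate pools, 2 of 6 Irf8-GFP pools, 4 of 12 Cebpa knockout pools, 2 of 6 Cebpa control pools and all 6 Cebpe pools. The targeted genes were read first, with the table's names. Cebpa stood at 0 to 6.76 counts per unit of pool size (CPM) in the Cebpa knockout pools and at 77.9 to 179.6 in their controls, and Cebpe at 0 in all 4 Cebpe knockout pools and at 36.8 and 65.4 in the controls. Which exons the deletions remove is not given in the labels, so a 3' count may lie outside them. Labels of age and treatment are therefore also uncertain for pools whose names differ: 12 pools are labelled 14 weeks and the rest 6 to 8 weeks, and 18 pools carry a poly(I:C) label, 8 of the Cebpa knockout and 4 of its controls among them. The 14-week label is on all 4 Cebpe knockout and both Cebpe control pools. It is also on 2 of 12 Cebpa knockout, 2 of 6 Cebpa control and 2 of 6 Flt3 gate pools, so labelled age runs with group. Of the Cebpa controls, the 2 pools of plate 26 bear a strain label with Mx1-Cre and the 2 of plate 27 do not. The other pools with a poly(I:C) label are 2 of 6 Flt3 gate pools, 2 of 4 Cebpe knockout pools and both Cebpe control pools. A dose, 300 µg in each of 3 injections with harvest 3 weeks later, is given for these 6 pools and for none of the Cebpa pools. Pools held 121254 to 852363 UMIs. Because each group has 1 mouse identifier, every spread and p-value below is one between amplification pools, which may be technical.

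Metallothioneins are small, cysteine-rich proteins that bind zinc and copper and can take up cadmium. Free zinc activates the transcription factor Mtf1, which binds metal response elements upstream of Mt1 and Mt2, and glucocorticoids and oxidative stress are also known to raise their expression. Red cell precursors handle large amounts of iron, zinc and haem. Car1 encodes carbonic anhydrase 1, an early gene of the erythroid line in the mouse, and the globin genes are switched on later in the same line.

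The starts of the 2 genes lie 6471 bases apart on chromosome 8, both on the + strand, with Mt2 upstream. The 250 bases before each RefSeq start are shown because metal response elements are known to lie upstream of these genes. Capitals mark matches to the metal response element core, searched as TGCACNC and TGCGCNC on both strands (assembly GRCm38.p6, + strand, 5′ to 3′). These coordinates are RefSeq's and not those of the deposited counts, which were made on mm9.
Mt1, chr8:94178839-94179088: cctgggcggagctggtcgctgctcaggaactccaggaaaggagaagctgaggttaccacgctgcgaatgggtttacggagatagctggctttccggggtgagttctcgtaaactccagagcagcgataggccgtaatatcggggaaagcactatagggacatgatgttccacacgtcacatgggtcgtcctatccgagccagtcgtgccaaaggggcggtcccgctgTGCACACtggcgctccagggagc
Mt2, chr8:94172368-94172617: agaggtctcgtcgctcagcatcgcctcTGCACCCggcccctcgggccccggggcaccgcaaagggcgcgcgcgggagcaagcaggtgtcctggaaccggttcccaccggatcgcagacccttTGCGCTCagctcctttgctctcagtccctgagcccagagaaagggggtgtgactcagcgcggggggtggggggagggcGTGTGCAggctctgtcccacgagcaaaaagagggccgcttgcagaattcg
The Mt1 window held 1 match, 23 to 17 bases before the start. Mt2 had 3, at 223 to 217, 128 to 122 and 50 to 44 bases before its start, the last of them on the - strand. Of 32851 RefSeq promoter windows of this length, 21.4% held at least 1 match and 1.26% held 3 or more. The GENCODE annotation also lists Mt1 starts 122 and 152 bases downstream of the RefSeq start, so the window drawn for Mt1 depends on which start is used. Bases after the RefSeq start were not searched. The motifs found and not found before Mt1 therefore hold for that start only, and the 2 genes cannot be compared by them. An antioxidant response element core, TGACNNNGC, was matched once before Mt2 and not before Mt1 (10.2% of windows hold one), and the GC box GGGCGG was found at 2 places before Mt1 and not before Mt2 (32.7% of windows hold one). Neither window held the erythroid GATA motif, AGATAA or TGATAA (16.6% of windows), or the E-box CACGTG (6.02%). A match describes the letters only, and binding was not measured.

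Mt1 was the more abundant member, with 23573 UMIs in 4555 of the 8399 cells (54.2%). Mt2 had 17488 UMIs in 2567 cells (30.6%). A UMI counts 1 tagged 3' end, so these numbers do not scale with gene length, although capture may differ between the genes. The single unsorted cell richest in Mt1 held 30 UMIs of it, and the richest in Mt2 held 37. The brain gene Mt3 had 0 UMIs in the cells used and the epithelial gene Mt4 had 0, so the metallothionein transcripts of these cells were Mt1 and Mt2. In the 108 empty wells, 4 Mt1 and 1 Mt2 UMIs were found among 6279.

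Both members were abundant in the 5 groups that were not sorted into CMP gates and scarce in the 3 gates. CPM here are scaled by the TMM factors of all 54 pools, and errors are SDs over pools. Mt1 was highest in the Cebpa controls, at 1871 ± 544 CPM (n = 6). The 6 pools read 1502, 1644, 1364, 1598, 2630 and 2492, and the 2 pools of plate 27 were the highest of all 54. The Cebpa knockout followed at 1142 ± 124 (n = 12; lowest 989.9, median 1125, highest 1392). Next came the Cebpe controls at 1035 ± 203 (892 and 1179) and the Cebpe knockout at 1034 ± 108 (1008, 1186, 1010.4 and 930.4). Unsorted progenitors had 994 ± 209 (n = 16; lowest 661, median 1035, highest 1453). These 5 groups overlapped each with the next in order. All 6 Cebpa control pools, from 1364 CPM, lay above every Cebpe control and Cebpe knockout pool, of which the highest read 1186. The Mt1 order of the other 4 groups is not set by more than the spread between pools.

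The sorted gates stood apart in Mt1. The CD41 gate had 296 and 208 CPM. The Flt3 and Csf1r gate had 120.4 ± 14.4 (n = 6; lowest 96.1, median 123, highest 137), and the Irf8-GFP gate 67.3 ± 16.1 (n = 6; lowest 49.6, median 62.5, highest 95.4). No pool of these 3 gates overlapped with the next group in the order.

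Mt2 separated the groups more widely than Mt1. It was again highest in the Cebpa controls, at 1773 ± 532 CPM (n = 6), with pools at 1369, 1361, 1407, 1602, 2518 and 2378, all above every pool of the other groups. Cebpe controls had 813 and 999 CPM. The Cebpa knockout had 829 ± 111 (n = 12; lowest 633, median 861, highest 978) and unsorted progenitors 737 ± 139 (n = 16; lowest 497, median 726, highest 945). These last 3 groups overlapped. The Cebpe knockout, at 352, 488, 307 and 325 CPM, lay below all 16 unsorted pools.

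Mt2 was close to absent in the gates. The Irf8-GFP gate had 24.3 ± 11.6 CPM (n = 6; lowest 5.66, median 25.6, highest 40.9) from 86 UMIs. The CD41 gate had 40.0 and 5.79 CPM from 17 UMIs, and the Flt3 and Csf1r gate had 2.84 ± 3.93 from 9 UMIs in 1132 cells, with 3 of 6 pools at 0. The ranges of the 3 gates overlapped each other. Of those 9 UMIs, 8 came from the 2 pools of sequencing batch SB25.

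**Figure D1:**
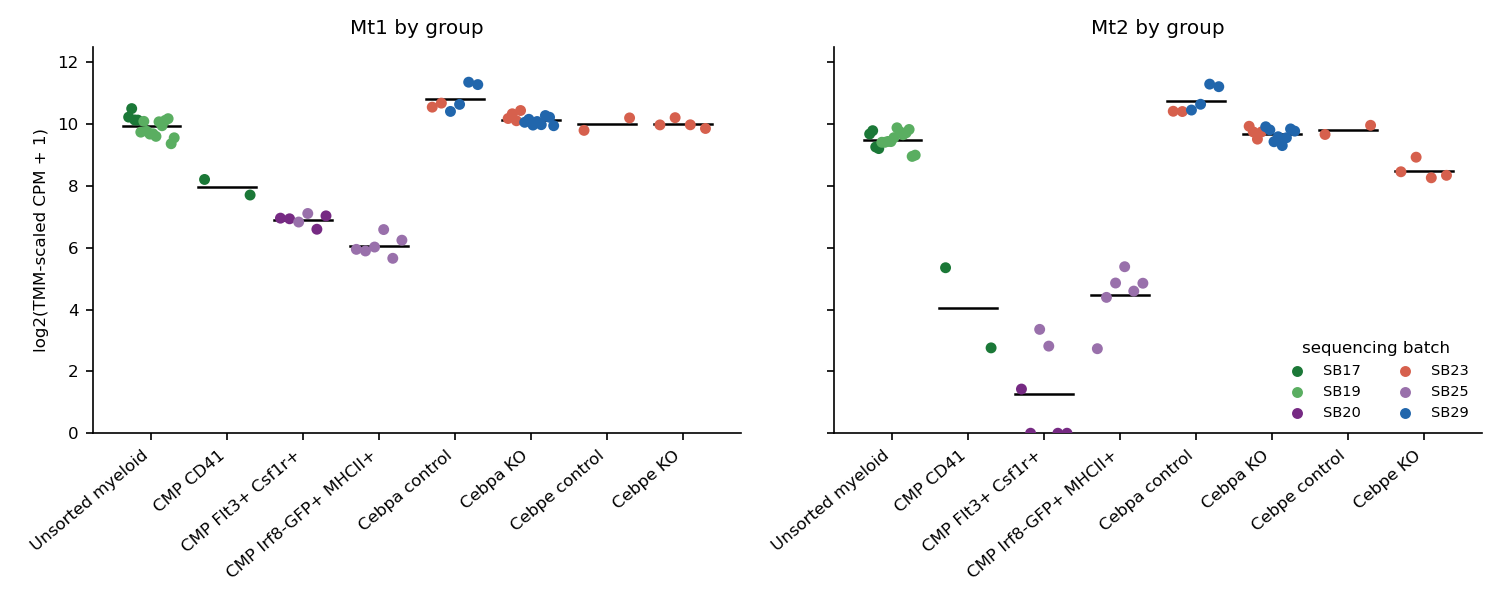
Mt1 and Mt2 in each of the 54 amplification pools, as log2 of TMM-scaled CPM plus 1 (vertical axis), by group of the authors' table; each point is a pool, its colour the sequencing batch, and the black line the mean of the points. The Cebpa controls are highest in both genes, the 3 CMP gates are lowest, and in Mt2 the Cebpe knockout lies below its control, with 3 Flt3 gate pools at 0.

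The balance between the members differed with the group. In unsorted progenitors there were 0.75 Mt2 UMIs per Mt1 UMI (exact 95% interval 0.73 to 0.77, counting error only; single pools 0.53 to 1.21). The Cebpa knockout had the same value, 0.75, the Cebpe controls 0.88 and the Cebpa controls 0.96. It was 0.35 in both the Cebpe knockout and the Irf8-GFP gate, 0.09 in the CD41 gate and 0.03 in the Flt3 and Csf1r gate. Within unsorted progenitors the 4 pools of batch SB17 had 0.60 and the 12 of batch SB19 had 0.80: Mt1 was 1226 ± 156 CPM against 917 ± 164, while Mt2 was 728 ± 147 against 741 ± 143.

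Along the Car1 axis, single unsorted cells were compared at equal depth by thinning each to 1000 UMIs, which left out 315 of the 2732 cells as too shallow. Of the 2417 remaining cells, 1058 had no Car1 UMI, and the others were split into 4 classes of about equal size by their Car1 UMIs: 1 UMI (379 cells), 2 to 4 (359), 5 to 7 (286) and 8 to 23 (335). Mt2 was close to absent in cells without Car1, at 0.12 UMIs per 1000, and stood at 0.34, 0.86, 1.22 and 1.26 in the successive classes. SDs over 16 pools were 0.10, 0.16, 0.33, 0.39 and 0.27 in the same order. Most of this difference lay below 5 Car1 UMIs, and the upper 2 classes differed by less than their spread over pools.

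Mt1 ran along the same axis over a smaller range. It stood at 0.51 UMIs per 1000 in cells without Car1 and at 0.72, 1.21, 1.54 and 1.56 in the 4 Car1 classes (SD over pools 0.13, 0.15, 0.37, 0.44 and 0.43). The log2 ratio of the highest Car1 class to cells without Car1 was 1.62 for Mt1 (SD over pools 0.37) and 3.40 for Mt2 (SD 1.12), and each gene was higher in the highest class in 16 of 16 pools. Cells without Car1 thus carried Mt1 with little Mt2: there were 0.23 Mt2 UMIs per Mt1 UMI in them, against 0.46, 0.71, 0.80 and 0.81 in the 4 Car1 classes.

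The share of cells with a UMI followed the same order. For Mt2 it was 8.32% without Car1 and 19.8%, 51.0%, 63.3% and 64.5% in the 4 Car1 classes, and for Mt1 it was 34.6%, 44.6%, 59.6%, 72.7% and 77.9%. For comparison, basophil- or mast-like cells (45 cells, median 1577 UMIs before thinning) had a Mt2 UMI in 2.22% and a Mt1 UMI in 17.8%. Whether that class lacks either gene was not tested. The median depth of cells without Car1 was 2840.5 UMIs. Depth before thinning also ran along the axis, to 5055 UMIs in the third class and 4454 in the highest. Without thinning, Mt2 was found in 8.996% of cells without Car1 and in 96.8% of the highest class by Car1 count.

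Cells with a globin UMI had more Mt2 than cells without one where Car1 was low, and about as much where it was high. Among the thinned cells, 200 held a UMI of Hba-a2 or Hbb-b1, and these had 0.995 Mt2 and 1.10 Mt1 UMIs per 1000, against 0.51 and 0.90 in the 2217 without. Cells with globin were deeper before thinning, with a median of 5189 UMIs against 3303, and richer in Car1, with 4.20 against 2.62 UMIs per 1000. Among cells with no Car1 UMI, the 31 with globin had 0.48 Mt2 UMIs per 1000 against 0.11 in the rest. Mt1 was lower with globin there, on few UMIs: of the 221 Mt1 UMIs in cells with globin, 211 lay in cells that also held Car1. In the class with 1 Car1 UMI, the 18 cells with globin had 1.06 Mt2 against 0.30 and 1.39 Mt1 against 0.69.

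From the second class of Car1 upwards the globin classes came together. Mt2 was 0.96 with globin (74 cells) and 0.83 without in the second class, 1.23 (43 cells) and 1.22 in the third, and 1.21 (34 cells) and 1.27 in the highest. The 55 cells with 2 or more globin UMIs had no more metallothionein than the 145 with 1: 0.76 against 1.08 for Mt2 and 0.95 against 1.17 for Mt1. When the Beta-s globin row was added, a choice made after these values were seen, 223 cells had globin, with 0.96 Mt2 and 1.12 Mt1.

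**Figure D2:**
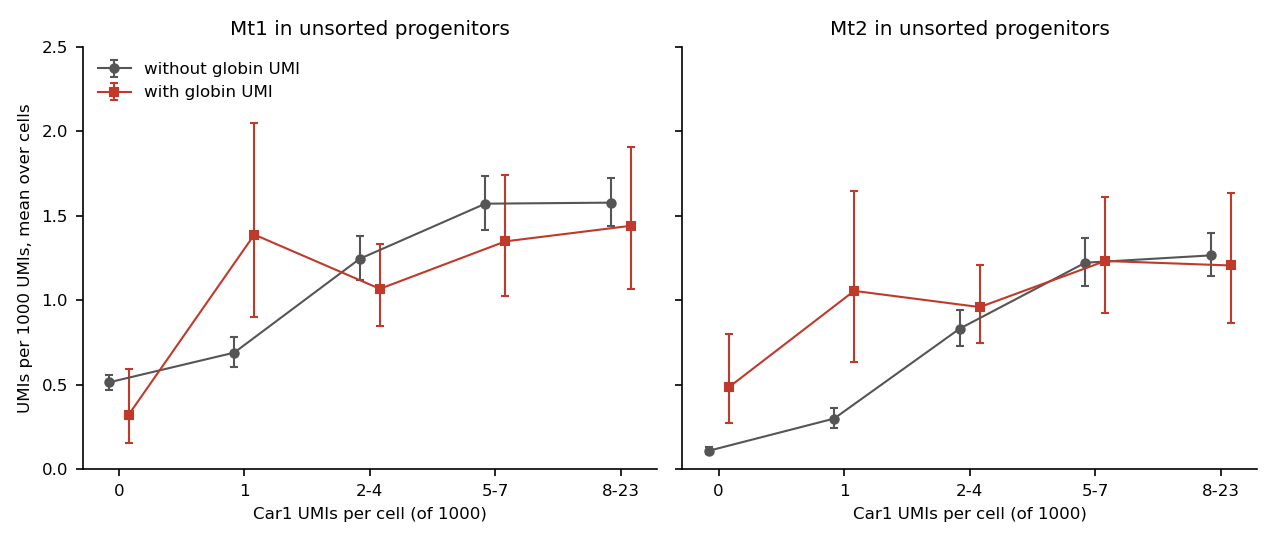
Mt1 (left) and Mt2 (right) in unsorted progenitors thinned to 1000 UMIs: UMIs per 1000 (vertical axis, mean over cells) by number of Car1 UMIs in the cell (horizontal axis), for cells with (red) and without (grey) a globin UMI; bars are exact Poisson 95% intervals that cover counting error only. Without globin, Mt2 goes from 0.11 to 1.27 and Mt1 from 0.51 to 1.58, and the globin classes differ most for Mt2 at 0 and 1 Car1 UMIs.

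Cells with one member more often held the other. Of the 2417 thinned cells, 551 had both, 667 had Mt1 alone, 192 had Mt2 alone and 1007 had neither. Mt2 was detected in 45.2% of cells with Mt1 and in 16.0% of cells without it. Across these cells, which share pools and depth, Pearson's r of the UMI numbers was 0.36 (n = 2417), and inside the 5 Car1 classes it was 0.19, 0.36, 0.24, 0.19 and 0.21. In sparse counts such values are weak, and they are given as a description.

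Clustering the unsorted cells without Mt1 and Mt2 gave 13 clusters, of which 11 took a name from marker genes. The genes that define the clusters are no result, and since Mt1 and Mt2 vary with them their levels by cluster are a description. Mt2 was near 1 UMI per 1000 or higher in the erythroid-like clusters and at 0.06 or below in the other large named clusters. Erythroid-like cluster 2 (388 thinned cells, led by Hbb-b1, Rhag and Hba-a2) had 1.55 Mt1 and 1.19 Mt2. Erythroid-like cluster 6 (269 cells, led by Hba-a2, Lmna and Sphk1) had 1.41 and 1.40. Cluster 8 (166 cells), also erythroid-like, had the interferon genes Isg15 and Irf7 among its leading genes and stood at 1.55 and 1.43.

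Unnamed cluster 1, led by Apoe and with Gata2 among its leading genes, lay between (243 cells; 1.25 Mt1 and 0.65 Mt2), at a Car1 level of 6.16 UMIs per 1000 that was as high as in the erythroid-like clusters (5.27 to 5.65). The small unnamed cluster 11 (41 cells) had 1.39 and 0.90. At a like Car1 level the balance of the members differed: cluster 1 had 0.52 Mt2 UMIs per Mt1 UMI and the erythroid-like clusters 2, 6 and 8 had 0.77, 0.99 and 0.93. Cells of cluster 1 were shallower before thinning, with a median of 2130 UMIs against 5218, 5298 and 6059.

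Neutrophil-like cells expressed Mt1 with scarcely any Mt2. In cluster 3 (351 cells, led by Fcnb, Pglyrp1 and Cebpe) Mt1 stood at 0.77 UMIs per 1000 and was found in 50.1% of cells, and Mt2 stood at 0.05 and was found in 4.56%. Monocyte-like clusters 5 and 7 had 0.47 and 0.43 Mt1 and 0.06 and 0.03 Mt2. Megakaryocyte-like cells (73 cells) had 0.36 and 0.05, and stem- or multipotent-like cells (268 cells) 0.20 and 0.04. A Mt2 UMI was found in 3.48% to 5.48% of cells in these classes (2.63% to 7.30% in cluster 3 and 2.95% to 8.17% in cluster 5 by exact binomial 95% interval). Basophil- or mast-like cells had it in 1 of 45 cells, 2.22% with an interval of 0.056% to 11.8%, too few to tell these shares apart. In the separate libraries of the Flt3 and Csf1r gate the share was 0.19% (2 of 1047 cells), and in those of the CD41 gate 1.04% (3 of 289). Mt1 in neutrophil-like cells was above the 17.8% and 15.3% of cells in the basophil- or mast-like and stem-like clusters, at a median depth of 3075 UMIs against 1577 and 2115.5 before thinning.

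**Figure D3:**
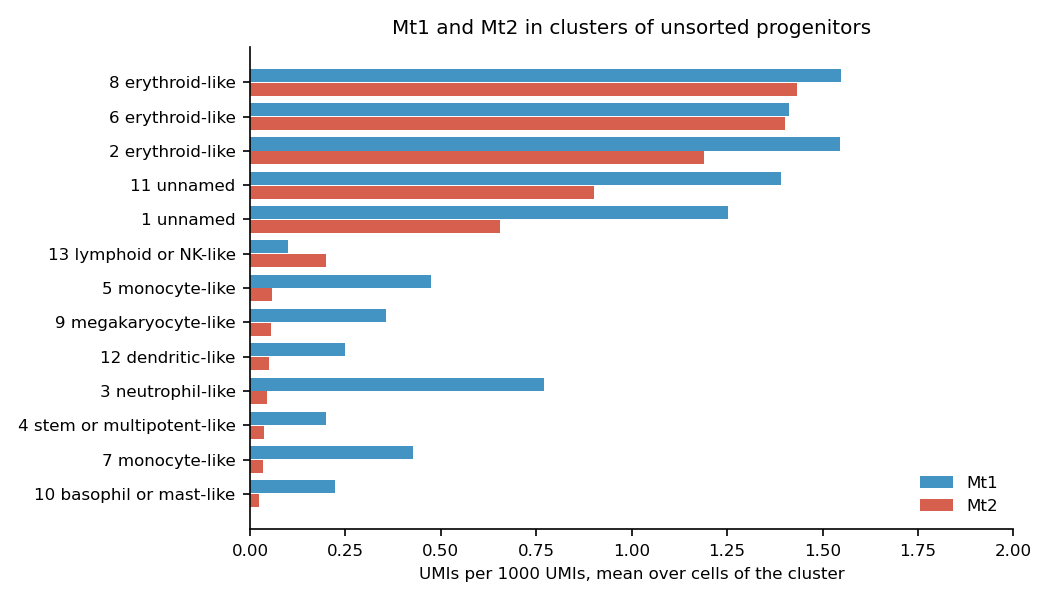
Mt1 (blue) and Mt2 (red) in the 13 clusters of unsorted progenitors, as mean UMIs per 1000 over thinned cells (horizontal axis, bars from 0), ordered by Mt2. Both genes are above 1 in the 3 erythroid-like clusters, neutrophil-like cells have 0.77 Mt1 and 0.05 Mt2, and clusters 12 (20 cells) and 13 (10 cells) rest on few cells.

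Surface protein recorded during the index sort is a measure that neither the choice of the members nor the RNA counts used. The members were chosen because they follow Car1, however, so a split by their UMIs is also a split by Car1. Cells with a UMI of either member had 3.94 Car1 UMIs per 1000 and cells without one 1.07. The test over all unsorted cells therefore cannot tell a difference that goes with metallothionein from one that goes with Car1. CD34 is a marker of immature progenitors, and FcgR, the Fc gamma receptor, is high on granulocyte and monocyte progenitors. Cells with a UMI of either member had a median CD34 intensity of 67.5 (mean of 16 pool medians; SD 34.7; 1401 cells), and cells without one 253 (SD 69.4; 1000 cells). For FcgR the medians were 58.6 and 817. Ranked within each pool, CD34 differed by -26.7 ± 3.70 percentile points in cells with metallothionein (pools from -32.2 to -19.7), and FcgR by -22.4 ± 4.17 (-29.9 to -14.7). Both proteins were lower in 16 of 16 pools (exact two-sided sign-flip permutation over pools, p = 3.05e-05, Benjamini-Hochberg adjusted over 4 tests 3.05e-05, the smallest 16 pools allow).

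Among cells with a Car1 UMI the differences were of the same size, -26.3 ± 6.15 points for CD34 and -23.1 ± 6.24 for FcgR (16 of 16 pools each, exact sign-flip p = 3.05e-05, adjusted 3.05e-05). The 2 sides still differed in Car1 there, at 5.58 UMIs per 1000 with metallothionein and 3.03 without. Restricting to cells with at least 5 Car1 UMIs, an alternative added after these values were seen, left 9 pools with 303 and 56 cells and Car1 at 8.61 and 7.97. The difference in CD34 was then -6.54 ± 9.50 points (lower in 8 of 9 pools, exact p = 0.0742, adjusted 0.148) and in FcgR -1.02 ± 15.9 (5 of 9 pools, exact p = 0.840, adjusted 0.840), so neither passed. By member, with the same exact test and p, Mt2 alone gave -35.0 points for CD34 and -35.7 for FcgR in all unsorted cells, and Mt1 alone gave -20.2 and -15.4.

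**Figure D4:**
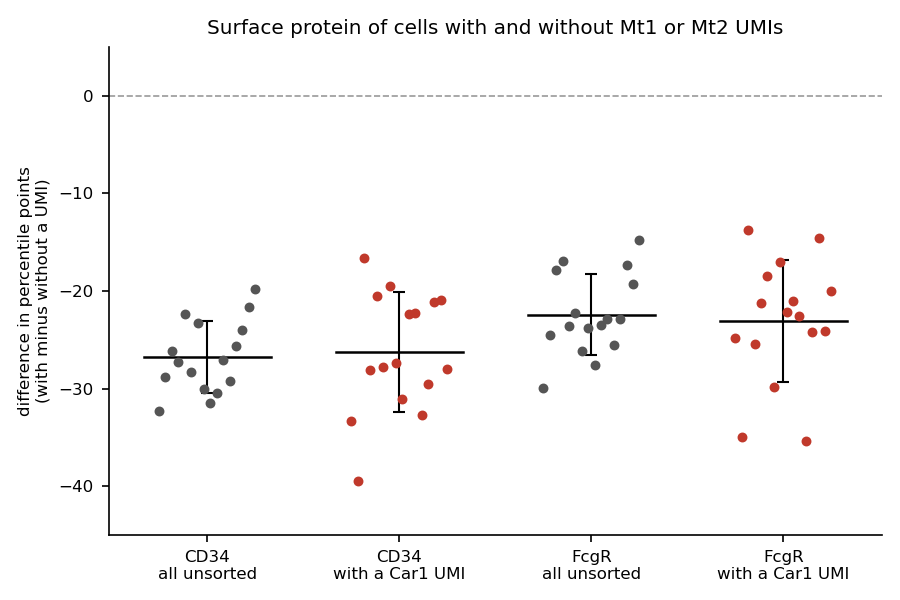
Difference in surface CD34 and FcgR, in percentile points within a pool (vertical axis), between unsorted cells with and without a UMI of Mt1 or Mt2, for all thinned cells (grey) and those with a Car1 UMI (red); each point is 1 of 16 pools, and lines and bars are the mean and SD. All points lie below 0, with means from -26.7 to -22.4 points.

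Against unsorted progenitors, both members were lower in all 3 sorted gates. Ratios of summed CPM are given with exact binomial 95% intervals that cover counting error only. In the CD41 gate the log2 ratio was -1.97 for Mt1 (-2.19 to -1.76) and -4.98 for Mt2 (-5.76 to -4.30), the latter on 17 UMIs. Within the shared sequencing batch SB17 it was -2.28 and -4.97. Both gate pools lay below all 16 unsorted pools in both genes, where 20.6% of the 8720 genes tested did so. Without the first CD41 pool Mt2 was at -7.01, on 2 UMIs.

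In the Flt3 and Csf1r gate the log2 ratio was -3.04 for Mt1 (-3.20 to -2.89) and -7.87 for Mt2 (-9.00 to -6.94). In the Irf8-GFP gate it was -3.90 for Mt1 (-4.09 to -3.72) and -5.00 for Mt2 (-5.32 to -4.69). Neither gene overlapped with the unsorted pools, which held for 6.73% of genes in the lower direction in the first gate and 8.8% in the second. These gates share no sequencing batch with the unsorted pools, so batch and gate cannot be told apart. By GEO label, which names other pools, the Flt3 ratios were -1.51 and -1.97, and in the 2 Flt3 pools that both sources name alike the Mt2 ratio was -9.72, on 1 UMI.

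Erythroid markers were lower in the 3 gates than in the unsorted pools, as were Mt1 and Mt2. The summed level of the 10 erythroid markers was 7811 to 12202 CPM in the unsorted pools and 836 to 1386 in the CD41 gate, where all 10 were detected. It was 66.8 to 127 in the Flt3 and Csf1r gate, with Ermap, Cldn13 and Sphk1 at 0, and 100.2 to 144 in the Irf8-GFP gate, with Rhd and Ermap at 0. In bulk sums of this kind, fewer cells of a type and less RNA per cell cannot be told apart. Single cells were therefore also assigned to the nearest cluster, with Car1, Mt1 and Mt2 left out. Erythroid-like cells were 20.5% to 47.2% of cells in the unsorted pools and 1.36% and 0% in the CD41 pools. They were 0% in every Flt3 and Irf8-GFP pool. The other unsorted cells had 0.59 Mt1 and 0.14 Mt2 UMIs per 1000, with Car1 at 1.16. All cells of the CD41, Flt3 and Irf8-GFP gates had 0.27, 0.13 and 0.06 Mt1 and 0.01, 0.002 and 0.03 Mt2. By single cells, the 262 megakaryocyte-like cells of the CD41 gate had 0.25 Mt1 and 0.00 Mt2 UMIs per 1000, against 0.36 and 0.05 in unsorted megakaryocyte-like cells. The 380 dendritic-like cells of the Irf8-GFP gate had 0.04 Mt1 and 0.04 Mt2. Monocyte-like cells of the Flt3 gate (527 cells) had 0.17 and 0.00.

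Between the Flt3 and Irf8-GFP gates, the members differed in opposite directions within the batch they share, SB25. Mt1 was lower in the Irf8-GFP gate (log2 ratio -0.91, interval -1.22 to -0.59; pools did not overlap), and Mt2 was higher on 86 against 8 UMIs (1.59, interval 0.55 to 2.85; pools overlapped). Only 2 Flt3 pools belong to that batch.

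In the Cebpa comparison, Mt2 was lower in the knockout than in its controls and Mt1 was lower by less. The knockout mean of Mt2, 829 CPM, lay near the Cebpe controls (813 and 999) and unsorted progenitors (737). The Cebpa controls, at 1773, stood above every other group. Whether the knockout is low or its controls are high was not tested. Cebpa encodes a transcription factor that granulocyte and monocyte progenitors need to form. The log2 ratio of knockout to control was -0.93 for Mt2 (interval -0.998 to -0.87), and all 12 knockout pools, 633 to 978 CPM, lay below all 6 control pools, 1361 to 2518, as 2.12% of the 5977 genes tested did. It was -0.59 for Mt1 (-0.65 to -0.53), with knockout pools of 989.9 to 1392 and control pools of 1364 to 2630 that overlapped. Within batch SB23 the ratios were -0.66 for Mt2 and -0.37 for Mt1, and within batch SB29 -1.04 and -0.71, with no overlap in either batch for either gene.

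Plate 27 of the controls stood apart and holds the highest metallothionein pools. Its Car1 was 782 and 595 CPM against 4289 to 4656 in the other 4 control pools, its globin 1265 and 1818 CPM against 384 to 728, and its erythroid marker sum 6565 to 6967 against 11366 to 13666. Without plate 27, a choice made after these values were seen, the ratios were -0.76 for Mt2 and -0.42 for Mt1, and Mt2 still did not overlap. Scaling by library size in place of TMM moved all genes by 0.14 in this comparison and gave -0.79 for Mt2 and -0.45 for Mt1. Other cell types moved with genotype too: the 8 neutrophil markers summed to 124 to 1302 CPM in the knockout and 11178 to 23221 in the controls. Their part in the metallothionein ratios was not tested.

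The difference was also present among erythroid-like cells alone, assigned to the nearest cluster with Car1, Mt1 and Mt2 left out of the assignment. Unsorted erythroid-like cells had 1.32 ± 0.20 Mt2 and 1.50 ± 0.31 Mt1 UMIs per 1000 (n = 16 pools, 842 cells), where the other unsorted cells had 0.14 and 0.59. Knockout erythroid-like cells had 1.29 ± 0.18 Mt2 (n = 12, 1.00 to 1.59, 453 cells) and control ones 2.59 ± 0.82 (n = 6, 1.82 to 3.81, 356 cells), and no knockout pool reached the lowest control pool. The log2 ratio of the pool means was -0.9997, or -0.53 within SB23, -1.19 within SB29 and -0.69 without plate 27.

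For Mt1 the erythroid-like values were 1.43 ± 0.29 in the knockout and 2.18 ± 0.65 in the controls, with overlapping pools (log2 ratio -0.61, or -0.31 without plate 27). The 2 pools of plate 27 had 3.00 and 3.02 Mt1 and 3.38 and 3.81 Mt2 in 95 erythroid-like cells with Car1 at 0.58 and 0.70, so these pools combined high metallothionein with little Car1. In the other 4 control pools Car1 was 5.98 ± 0.40 UMIs per 1000 and Mt2 2.08 ± 0.28, and in the knockout Car1 was 6.87 ± 0.77.

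Different clusters held the erythroid-like cells of the 2 genotypes: 80.8% of knockout cells were in cluster 2 and 17.4% in cluster 8, while 68.5% of control cells were in cluster 6 and 25.3% in cluster 2. Inside cluster 2, Mt2 was 1.33 in 366 knockout cells and 2.33 in 90 control cells, and Mt1 was 1.44 and 1.80. Of those 90 control cells, 84 were from plate 26. In the highest Car1 class, whatever the cluster, Mt2 was 1.03 in the knockout and 2.32 in the control. Among the cells that were not erythroid-like, Mt2 was 0.20 and 0.31 and Mt1 0.65 and 1.02. Car1 was not alike in those cells, at 3.19 in the knockout and 1.50 in the control.

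**Figure D5:**
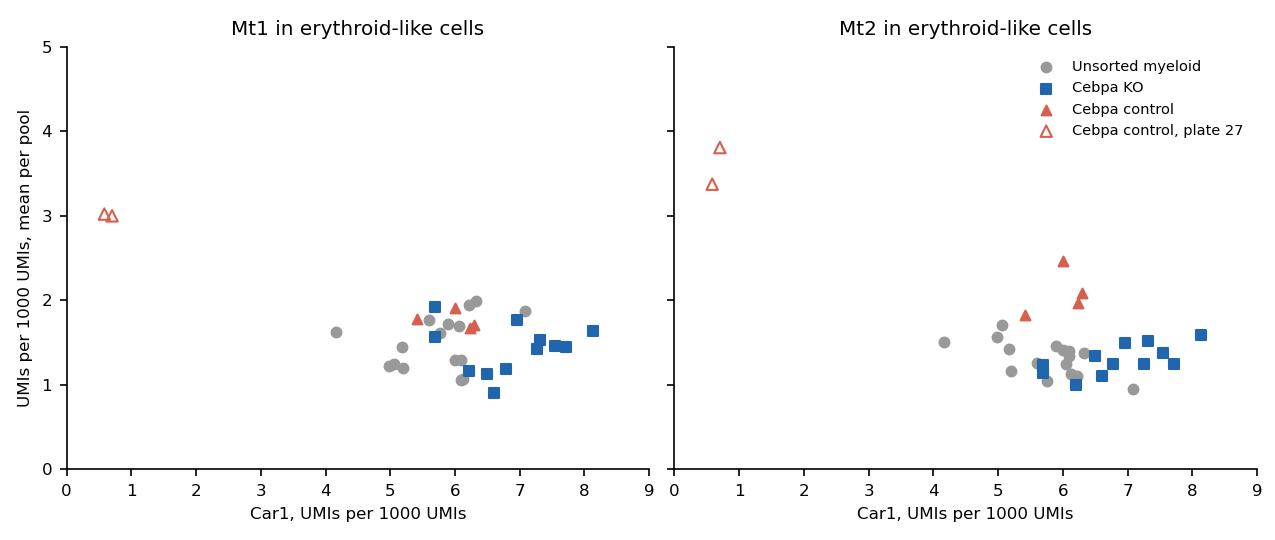
Mt1 (left) and Mt2 (right) against Car1 in erythroid-like cells, both as UMIs per 1000, mean per pool; each point is a pool of unsorted progenitors (grey circles), Cebpa knockout (blue squares) or Cebpa control (red triangles, open for plate 27). For Mt2 the knockout pools (1.00 to 1.59) lie among the unsorted pools and below all control pools (1.82 to 3.81), and the 2 pools of plate 27 combine the highest metallothionein with the lowest Car1.

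In the Cebpe comparison the members parted, with Mt2 lower in the knockout and Mt1 near its control level. Cebpe encodes a transcription factor of late granulocyte maturation. Mt2 stood at 352, 488, 307 and 325 CPM in the knockout and 813 and 999 in the controls (log2 ratio -1.34, interval -1.47 to -1.20), with no overlap, which held for 20.5% of the 7369 genes tested in the lower direction. Mt1 stood at 1008, 1186, 1010.4 and 930.4 against 892 and 1179 (log2 ratio -0.01, interval -0.12 to 0.09), and its pools overlapped. These groups rest on the well table alone, since every Cebpe label differs from it. By label the ratios were 1.85 for Mt2 and 0.52 for Mt1, but the pools so named include ones with 0 Cebpe UMIs among the controls.

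The make-up of the cells differed between these groups as well. The erythroid markers summed to 2870 to 4232 CPM in the knockout and 9620 to 11905 in the controls, and the neutrophil markers to 51332 to 59001 and 14765 to 15574, with Cebpe itself, 1 of those markers, at 0 in the knockout. Within erythroid-like cells Mt2 was not lower: it stood at 2.44 ± 0.50 UMIs per 1000 in the knockout (4 pools, 47 cells) and 1.78 ± 0.20 in the controls (2 pools, 69 cells), and Mt1 at 2.03 ± 0.43 and 1.64 ± 0.27. In the remaining cells Mt2 was 0.07 ± 0.02 against 0.16 ± 0.02 (log2 ratio -1.20), whereas Mt1 was 0.90 ± 0.04 against 0.62 ± 0.05 (0.53). Car1 differed in those remaining cells too, at 0.25 UMIs per 1000 in the knockout and 1.43 in the controls, and its part was not tested. Neutrophil-like cells, 249 of the knockout and 31 of the controls, had 1.12 and 1.03 Mt1 with 0.05 and 0.06 Mt2.

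Genes of metal, redox, iron and glucocorticoid handling were counted from edgeR quasi-likelihood fits over all genes (adjusted p under 0.05), as the surroundings in which the 2 members are known to act. The 4 lists hold 83 genes, and both Mt1 and Mt2 passed the low-count filter of every fit and are not counted here. CPM below are scaled within each fit. In the Cebpa comparison 45 were tested, 4 rose and 5 fell, against 18.2% of all genes called. Of 12 zinc and copper genes, 0 rose and 1 fell (list median log2 ratio -0.09, all genes 0.02): Cox17, which carries copper to cytochrome oxidase, at 680 ± 101 CPM against 932 ± 318 (log2 fold change -0.45, SE 0.15, edgeR adjusted p = 0.033). At an unadjusted p under 0.05 there were 4, and DESeq2 called 1 risen and 2 fallen.

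Mtf1 itself, at 22.2 CPM in the Cebpa knockout and 35.9 in its control, was not called (edgeR adjusted p = 0.11), nor was it at 42.5 CPM in the Cebpe knockout against 23.6 (edgeR adjusted p = 0.093). Of 15 antioxidant genes 3 rose and 3 fell (median 0.17). Gclm, a subunit of the enzyme that starts glutathione synthesis, was at 460.2 CPM against 309.8 (0.56, SE 0.15, adjusted p = 0.0093), and the glutathione transferase gene Gstm1, also on the neutrophil list, at 38.8 against 475 (-3.54, SE 0.25, adjusted p = 3.4e-11). Of 13 iron genes only the ferritin light chain gene Ftl1 changed, at 2588 against 4102 (-0.66, SE 0.17, adjusted p = 0.006), and of 5 glucocorticoid genes only the receptor gene Nr3c1, at 169.6 against 117 (0.51, SE 0.16, adjusted p = 0.027). Without plate 27, 0 zinc and copper genes and 0 iron genes were called of 14 each by edgeR (2 each at an unadjusted p under 0.05).

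In the Cebpe comparison 59 of the 83 were tested and 12 rose and 12 fell, where 23.4% of all genes were called. Of 20 zinc and copper genes 2 rose and 1 fell (median 0.00, all genes -0.01). Sod1, the copper and zinc superoxide dismutase, was at 916 CPM against 1279 (-0.48, SE 0.12, edgeR adjusted p = 0.0033). The copper transporter gene Slc31a2 was at 19.1 against 3.26 (2.46, SE 0.70, edgeR adjusted p = 0.0098), and Slc39a7, a zinc transporter counted in a row joined to H2-Ke6 and so uncertain, at a log2 fold change of 0.51. Iron genes fell in 5 of 17 and rose in 3 (median -0.39). Glrx5, which serves iron-sulphur cluster assembly, was at 327 CPM against 589 (-0.86, SE 0.14, edgeR adjusted p = 2.5e-05), Fth1 fell by 0.60 and Ftl1 rose by 0.55 on the log2 scale. Of 16 antioxidant genes 4 rose and 5 fell (median -0.41), with Gstm1 at 2.18 and Prdx2, a peroxiredoxin abundant in red cells, at -1.03. Of 6 glucocorticoid genes 3 rose and 1 fell (median 0.75), Klf9 at 1.31 and Fkbp5 at 0.88 among them.

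In the gates more of the lists were called, as were more genes in all. In the CD41 gate 9 of 65 rose and 25 fell, where 40.5% of all genes were called. Iron genes fell in 10 of 17 with 0 risen (median -1.06, all genes -0.15), Glrx5 at 344 CPM against 657 (-0.93, SE 0.18, edgeR adjusted p = 0.00012) among them. Zinc and copper genes rose in 4 of 21 and fell in 3 (median 0.04), and Sod1 was at 2025 against 1340 (0.60, SE 0.15, edgeR adjusted p = 0.0017). Antioxidant genes rose in 4 of 19 and fell in 10, and glucocorticoid genes in 1 and 2 of 8.

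In the Flt3 and Csf1r gate 12 rose and 30 fell of 65, where 53.3% of all genes were called, and in the Irf8-GFP gate 14 rose and 33 fell, where 56.1% were. The zinc and copper list was divided in both, with 3 risen and 6 fallen of 21 in the first (median 0.11) and 8 and 7 in the second (median 0.00). Mtf1 was lower in both, by a log2 fold change of -0.62 each (edgeR adjusted p = 0.034 and 0.023). Iron genes fell in 9 of 17 in each gate. Glrx5 was at 299 CPM in the Flt3 gate and 204 in the Irf8-GFP gate against 657 (-1.13 and -1.69; edgeR adjusted p = 1.6e-10 and 6.3e-15), and the transferrin gene Trf at 285 in the Irf8-GFP gate against 56.4 (2.34, SE 0.17, edgeR adjusted p = 2.6e-14). Antioxidant genes fell in 10 and 12 of 19, with Prdx2 at -1.01 and -1.39, and glucocorticoid genes in 5 of 8 in each gate. The 3 gates share the 16 unsorted pools, so these counts are not independent of each other.

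Across the 54 pools, Mt1 was most like genes of the erythroid line. Pearson's r of log2(CPM + 1) with Mt1, among 3490 genes with a mean of at least 50 CPM, was highest for Tspo2 (0.963), Blvrb (0.962), Rhd (0.960), Fam132a (0.957) and Prss50 (0.955), and lowest for Tmem176b (-0.894), Cd27 (-0.889) and Eltd1 (-0.882). Blvrb encodes biliverdin reductase B and Rhd a blood group protein of the red cell membrane. For Mt2 the highest were Atp1b2 (0.953), Lmna (0.944), Rhd (0.943), Sphk1 (0.943) and Ank1 (0.943), the last encoding ankyrin of the red cell skeleton, and the lowest Tmem176b (-0.932), Tmem176a (-0.894) and Cd27 (-0.889). Mt1 and Mt2 had an r of 0.901 with each other, Car1 of 0.946 and 0.919, and the globin gene Hba-a2 of 0.748 and 0.843. The pools share their group, gate and sequencing batch, so these values describe how groups differ as much as anything within them. Over the 13 clusters of unsorted cells, the genes most like the sum of the members among 3590 were Pik3r2 (0.936), Mthfd1 (0.930), Cul4a (0.927), Hars (0.924) and Cox17 (0.924).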

How the data were processed

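UMI counts per gene row and well, as deposited by the authors, were used as raw counts. The deposited well table gives the description and mouse identifier of each well with its plate and batch, and the surface CD34 and FcgR signal of index-sorted cells as linear fluorescence intensity. The build mm9 and bcl2fastq 2.15.0.4 are named in the submitters' processing notes. The aligner is not given in sources used here. Wells with 1 cell and 500 UMIs or more were kept, and no doublet caller was run because cells were sorted singly. Over 1431 pairs of pools, chi-square per degree of freedom was 1.35 or more, so none was treated as a duplicate library. Pool sums were tested in R 4.3.3 with edgeR 4.0.16 (TMM, filterByExpr, quasi-likelihood, Benjamini-Hochberg). The unsorted progenitors and the 3 gates were fitted together, and DESeq2 1.42.0 was an alternative. Of 2109 rows that join several symbols, values are uncertain for each gene. Cells were thinned to 1000 UMIs once, with a fixed seed, and clustered with scanpy 1.11.5 on 999 genes (20 principal components, 15 neighbours, Leiden resolution 1). The sign-flip test over pools was enumerated in full. The edgeR fits and the sign-flip test were each tried on simulated data. The 2 members, the 4 gene lists and the tests were chosen with earlier results of these data known. Named genes are the members, Car1 and globins, up to 4 called genes per list and comparison with the highest mean CPM (fewer where space is short), Mtf1, named after its value was seen, and those most like the members over pools and clusters. Alternatives covered the grouping of pools, the UMI minimum, filters, scaling, batch and thinning depth. Each pool was also left out in turn in the CD41 gate, the Cebpe knockout and the Cebpe controls, and not in the larger groups.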

Additional observations from a re-analysis of the deposited data

How the results depend on the processing

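Of the values of Mt1 and Mt2 under alternative settings, 75 kept their direction within 1 SD over pools, 6 moved by more and 7 changed sign. Those that changed sign were the Cebpe ratios: Mt1, at -0.01, was 0.52 by GEO label, 0.059 with at least 1000 UMIs per cell, 0.0025 with no minimum, 0.036 with DESeq2 size factors and -0.21 to 0.20 leaving out each pool in turn (0.20 without control pool 2, 0.04 without knockout pool 4), and Mt2 was 1.85 by GEO label. Those that moved were Mt2 in the CD41 gate (-7.01 to -4.22 leaving out each pool), Mt1 in the Flt3 gate by GEO label (-1.51), Mt2 there by GEO label (-1.97) and in pools whose sources agree (-9.72), and the Mt2 ratio of the highest Car1 class to cells without Car1 (3.40), which was 4.75 without thinning and 4.76 by Car1 share. The number of list genes called went from 9 to 4, 3 and 4 in the Cebpa comparison (agreeing pools, GEO label, batch SB29), from 34 to 22 in the CD41 gate and from 42 to 22 in the Flt3 gate (GEO label). Leaving out each pool gave 8 to 23 in the Cebpe comparison (main 24; 13 and 8 without control pools 1 and 2) and 16 to 17 in the CD41 gate (16 and 17 without its pools 1 and 2). Surface CD34 and FcgR differed by -6.54 and -1.02 points in cells with at least 5 Car1 UMIs, with 56 cells on the smaller side. The other 48 counts and surface tests kept their side. The cause of each change was not tested. A lone pool left in a group was assumed to vary like the others. No paired analysis was possible because pool numbers mark amplification pools and do not tie the pools of 2 groups together. Counting error limits Mt2 in the gates, which rests on 9 to 86 UMIs, although total depth was alike in the Flt3 gate (2885927 UMIs, 9 of Mt2) and the Cebpa controls (2876486, 4388 of Mt2).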
